A study of Mus musculus with 14 samples.

Results

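The microRNAs described here are the miR-125 and miR-99 families, chosen by name: mmu-miR-125a-5p, mmu-miR-125b-5p, mmu-miR-125a-3p, mmu-miR-125b-3p, mmu-miR-99a, mmu-miR-99b and mmu-miR-100, 7 of the 375 microRNA assays on a TaqMan rodent array card. The mouse prefix mmu is left out from here on. Each well of a card holds a real-time PCR assay for 1 known small RNA. The 14 arrays came from heterotopic heart transplantation between mice aged 8 to 10 weeks, with RNA of 3 animals pooled on each array. Whole heart grafts were taken on day 7 and graft-infiltrating lymphocytes (GIL) on day 5. In the syngeneic groups both donor and recipient were C57BL/6, and the grafts were labelled as not rejected. In the allogeneic groups the donor was BALB/c and the recipient C57BL/6, and the grafts were labelled as rejected. Each of these 4 groups had 3 arrays. Normal BALB/c hearts and normal C57BL/6 blood mononuclear cells (PBMC) gave 1 array each. The strain of the graft therefore differs along with rejection, and strain and rejection cannot be told apart here. Nothing in the labels gives the purity of the GIL, and in pooled tissue fewer cells of a type and less RNA per cell cannot be told apart.

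MicroRNAs are short RNAs that guide Argonaute proteins to messenger RNAs, mainly through pairing of the seed, the bases near the 5′ end. The miR-125 family is the mammalian counterpart of lin-4, the Caenorhabditis elegans microRNA that times larval development. In mice, excess miR-125b expands blood progenitors and can cause leukaemia. The miR-99 family, which includes miR-100, is known for targeting components of the mTOR growth pathway. Mammalian genomes keep members of both families beside a let-7 gene in several clusters.

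The mature sequences are shown because they set which members share a seed, and so which can pair with the same target sites. They are RefSeq entries on mouse build GRCm38.p6, printed 5′ to 3′ with bases 2 to 8, the seed, in capitals.
miR-125a-5p: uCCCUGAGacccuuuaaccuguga
miR-125b-5p: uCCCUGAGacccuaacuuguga
miR-125a-3p: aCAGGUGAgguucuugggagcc
miR-99a: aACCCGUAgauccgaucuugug
miR-100: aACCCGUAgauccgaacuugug
miR-99b: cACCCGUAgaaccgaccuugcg
miR-125a-5p and miR-125b-5p have 1 seed in common, and miR-99a, miR-100 and miR-99b another. Between miR-99a and miR-100 there is 1 difference, U16A, with positions counted from the 5′ end. From miR-99a to miR-99b there are 4, A1C, U11A, U16C and U21C. How far the assays for miR-99a and miR-100 tell the 2 RNAs apart was not tested. The assay named miR-125b-3p fits 2 RefSeq entries, the 3′ arms of Mir125b-1 and Mir125b-2, and neither is printed because the card's name does not say which it reads.

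The genes lie in 3 clusters, each with a let-7 gene between a miR-99 gene and a miR-125 gene. On chromosome 9, Mir100 (chr9:41531425-41531504), Mirlet7a-2 and Mir125b-1 (chr9:41581926-41582002) span 50578 bases inside the long non-coding RNA gene Mir100hg. On chromosome 16, Mir99a (chr16:77598936-77599000), Mirlet7c-1 and Mir125b-2 (chr16:77646273-77646343) span 47408 bases and overlap no other gene in that annotation. On chromosome 17, Mir99b (chr17:17830188-17830257), Mirlet7e and Mir125a (chr17:17830812-17830879) span 692 bases inside the protein-coding gene Spaca6. miR-125b-5p is made from both the chromosome 9 and the chromosome 16 cluster, whereas the other members with a printed sequence each have 1 gene.

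Between 228 and 260 microRNA assays were detected on the heart arrays and between 161 and 221 on the GIL and PBMC arrays, where detected means a threshold cycle (Ct) under 35. The third allogeneic pool of GIL lay far from the rest, at 161 detected assays and a mean Ct of 27.95 over the reference assays, against 23.2 to 25.8 on the other arrays of its table. The differences of the members in GIL are therefore also given without it. Levels are minus the Ct after subtracting the array's mean over the reference assays (210 in hearts, 137 in GIL and PBMC), so that a difference of 1 is about 1 log2 unit. Levels of different assays are not comparable as amounts.

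The label of the GIL was checked against microRNAs known from particular cell types. The 2 pan-leukocyte microRNAs, miR-142-3p and miR-142-5p, were detected on all GIL arrays, but both were lower in GIL than in PBMC, with median log2 differences of -3.05 in the syngeneic and -1.75 in the allogeneic group. Of the 3 lymphocyte microRNAs, miR-150, which is high in resting lymphocytes, was lower in GIL than in PBMC, by log2 differences of -2.97 in the syngeneic (limma adjusted p = 0.00365) and -2.46 in the allogeneic group (limma adjusted p = 0.00922). miR-155, which rises on lymphocyte activation, was higher than in PBMC in allogeneic GIL, at 2.59 (limma adjusted p = 0.00267), and differed by 0.62 in syngeneic GIL (limma adjusted p = 0.21). miR-342-3p was not called in either. The myeloid miR-223 differed from PBMC by -2.49 in syngeneic GIL (limma adjusted p = 0.0655) and was lower in allogeneic GIL, at -3.32 (limma adjusted p = 0.0291), and the erythroid miR-451 was lower in both, at -2.35 and -1.69, while the other erythroid microRNA was undetected on all GIL and PBMC arrays. The 3 fibroblast microRNAs had median log2 differences of at least 9.62 and 8.31 from PBMC in syngeneic and allogeneic GIL. These medians are bounds, as miR-199a-5p and miR-214 were undetected in PBMC. The fibroblast miR-199a-3p, detected there, differed by 8.59 and 7.21. The 3 cardiac muscle microRNAs that could be tested, of 6, had medians of 7.58 and 9.24. The medians were 5.34 and 4.69 for the 2 endothelial and 7.18 and 7.38 for the 2 smooth muscle microRNAs. In PBMC, 4 of the 6 cardiac muscle markers and 2 of the 3 fibroblast markers were undetected. Apart from erythroid miR-451, the microRNAs known from non-leukocyte cells that could be tested were thus higher in the recovered GIL than in blood cells. Their part in the results on GIL was not tested.

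**Figure D1:**
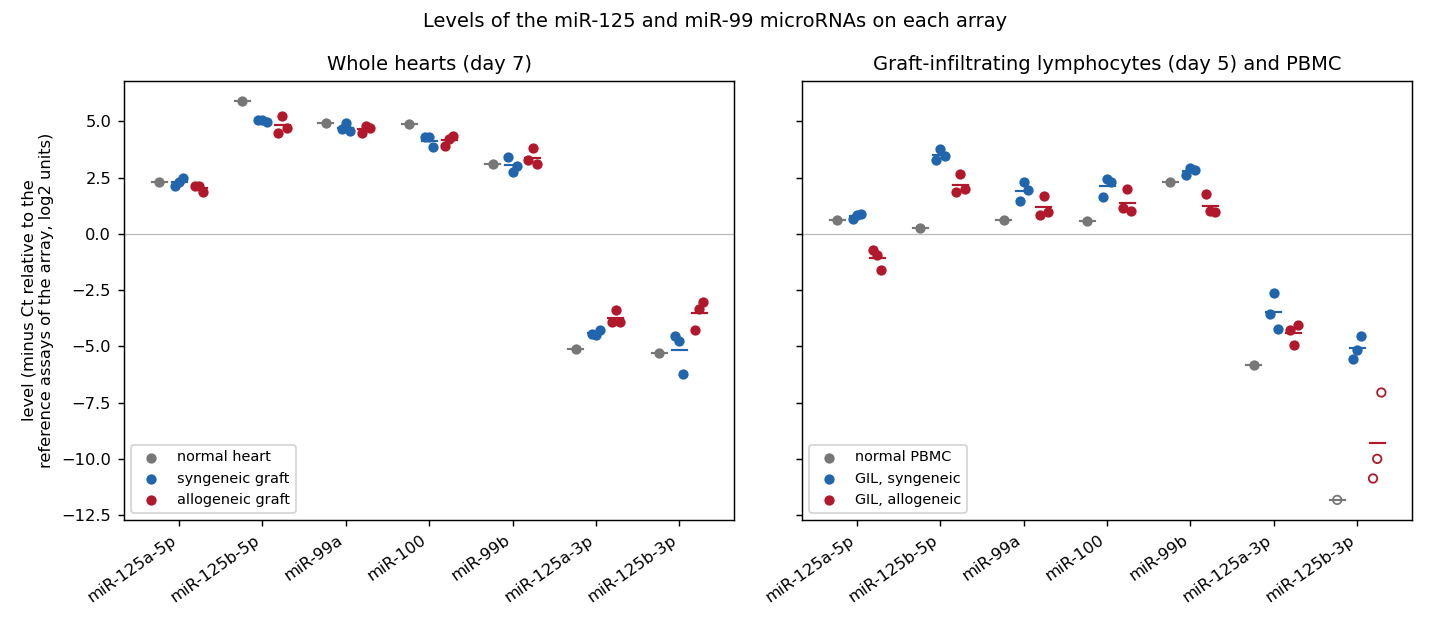
Level of each microRNA on each array, as minus Ct relative to the reference assays of the array in log2 units, in whole hearts on the left and in GIL and PBMC on the right. Each point is 1 array, short lines are group means, and open points are arrays on which the assay was undetected and stands at the limit; the allogeneic GIL points lie below the syngeneic ones for miR-125a-5p, miR-125b-5p and miR-99b.

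In GIL the question was whether cells recovered from rejected grafts differ from those of accepted grafts. Detected on all 6 transplant arrays were 6 of the 7 members, and of these miR-125a-5p, miR-125b-5p and miR-99b were lower in allogeneic than in syngeneic GIL (3 of 6 called) and none was higher. Of all 152 assays detected on these arrays, 35.5% were called, 20.4% as lower. The median difference of the 6 members was -1.13, against 0.07 over the 152 assays. The 3 members called also did not overlap between the groups, as was the case for 55.9% of the 152 assays. The seventh member, miR-125b-3p, was undetected in allogeneic GIL, so its difference is a bound and is not counted.

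miR-125a-5p, which carries the miR-125 seed and comes from the chromosome 17 cluster, stood at levels of 0.64, 0.83 and 0.88 in the 3 syngeneic pools and at -0.70, -0.95 and -1.62 in the 3 allogeneic pools. PBMC stood at 0.60, beside the syngeneic pools. The allogeneic pools were thus below every other array of the table. The log2 difference between allogeneic and syngeneic GIL was -1.87 ± 0.30 (SE, n = 3 and 3), a 3.66-fold lower level, with an adjusted p of 0.0077 (limma, Benjamini-Hochberg over all assays tested). Without allogeneic pool 3 it was -1.61, with a limma adjusted p of 0.00656.

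miR-99b, the miR-99 seed member of the same cluster, had levels of 2.63, 2.94 and 2.83 in syngeneic GIL, 1.75, 1.02 and 0.98 in allogeneic GIL and 2.29 in PBMC. Again the allogeneic pools lay below both the syngeneic pools and PBMC. The difference was -1.55 ± 0.29 (SE, limma adjusted p = 0.0112), and -1.41 without allogeneic pool 3 (limma adjusted p = 0.0214). The call of miR-99b was lost without syngeneic pool 2 (limma adjusted p = 0.0545) and with quantile normalization (limma adjusted p = 0.0511).

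miR-125b-5p showed another order, with levels of 3.27, 3.75 and 3.47 in syngeneic GIL, 1.86, 2.66 and 2.00 in allogeneic GIL and 0.24 in PBMC. Its allogeneic level lay between the syngeneic level and that of blood cells. It was 2.50-fold lower in allogeneic than in syngeneic GIL, a log2 difference of -1.32 ± 0.30 (SE, limma adjusted p = 0.0215). Without allogeneic pool 3 the difference was -1.24 (limma adjusted p = 0.0443), but without allogeneic pool 1, syngeneic pool 2 or syngeneic pool 3 it was no longer called, at limma adjusted p-values of 0.052, 0.0864 and 0.0758.

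miR-125b-3p, made from the other arm of the miR-125b hairpins, was detected in 3 of 3 syngeneic GIL pools, at levels of -5.56, -5.17 and -4.52. It was detected in 0 of 3 allogeneic pools and not in PBMC. Against the detection limit its level was at least 18.7-fold lower in allogeneic than in syngeneic GIL. The assay was tested only because it was detected in the syngeneic group, so its fitted p, which sets measured values against the limit, is not given. The limit itself stood at -7.05 on allogeneic pool 3 and at -10.87 and -10.00 on pools 1 and 2, all below the syngeneic pools, and without allogeneic pool 3 the bound was -5.35 log2 units. With a limit of Ct 32 in place of 35 the fitted difference shrank to -1.36.

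The other 3 members were not called in GIL. miR-99a had levels of 1.47, 2.30 and 1.94 in syngeneic and 0.84, 1.69 and 0.98 in allogeneic GIL, and miR-100 had 1.64, 2.44 and 2.33 against 1.14, 1.99 and 1.03. Both pairs of groups overlapped. The log2 differences were -0.73 for miR-99a (95% interval -1.59 to 0.13) and -0.75 for miR-100 (95% interval -1.68 to 0.18). miR-125a-3p, the other arm of the miR-125a hairpin, had a difference of -0.95 (95% interval -2.12 to 0.22) with overlapping groups. Without allogeneic pool 3 these 3 differences were -0.64, -0.57 and -1.13, and none was called.

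Other microRNAs moved in the same comparison. The fibroblast microRNAs miR-199a-3p, miR-199a-5p and miR-214 were all lower in allogeneic GIL (3 of 3 called, median -1.38), as was miR-126-3p, 1 of 2 endothelial microRNAs. The mean level of the 3 fibroblast microRNAs ranged from 1.48 to 1.83 in syngeneic and from -1.01 to 0.06 in allogeneic pools. Of the cardiac muscle microRNAs tested, 2 of 3 were higher (median 1.66), and of the pan-leukocyte microRNAs 1 of 2 was higher (median 1.30). miR-155 was the 1 of 3 lymphocyte microRNAs called, higher by 1.98 in allogeneic GIL (limma adjusted p = 0.00713), and the mean level of the 3 ranged from 1.91 to 2.31 in syngeneic and from 2.83 to 3.37 in allogeneic pools. Of the 2 smooth muscle microRNAs, 0 were called (median 0.20). Neither myeloid miR-223 (-0.83) nor erythroid miR-451 (0.67) was called. The part of the cell make-up in the members' differences was not tested. All syngeneic GIL arrays were run on 1 day and the allogeneic arrays on 2 other days, so that run day and group cannot be told apart within a day.

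The scaling of the arrays decided the size of these differences. Scaled to MammU6, to snoRNA202, or to the mean of snoRNA135 and snoRNA202, none of the 6 measured members was called. The median difference over all assays tested moved from -0.24 to 0.58, 0.65 and 0.41. These controls had lower mean levels in allogeneic than in syngeneic GIL (MammU6 9.20 and 10.01, snoRNA135 2.62 and 3.03, snoRNA202 5.62 and 6.51). The controls U87 (0.87 and 0.76) and Y1 (0.45 and 0.12) were higher in allogeneic GIL. Scaling to U87 or Y1 was not run. With no filter on low values, which adds assays to the adjustment, the call of miR-125a-5p remained and those of miR-99b and miR-125b-5p were lost. Over the 7 scalings compared, the log2 difference of miR-125a-5p ranged from -1.87 to -0.98, that of miR-99b from -1.55 to -0.66 and that of miR-125b-5p from -1.32 to -0.43, and none of these 3 changed sign. Relative to the median of all assays tested under the same scaling, miR-125a-5p stayed between -1.63 and -1.53, miR-99b between -1.39 and -1.31 and miR-125b-5p between -1.28 and -1.08. miR-99a and miR-100 turned to small positive values, of 0.16 and 0.14 at most, when scaled to snoRNA202.

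**Figure D2:**
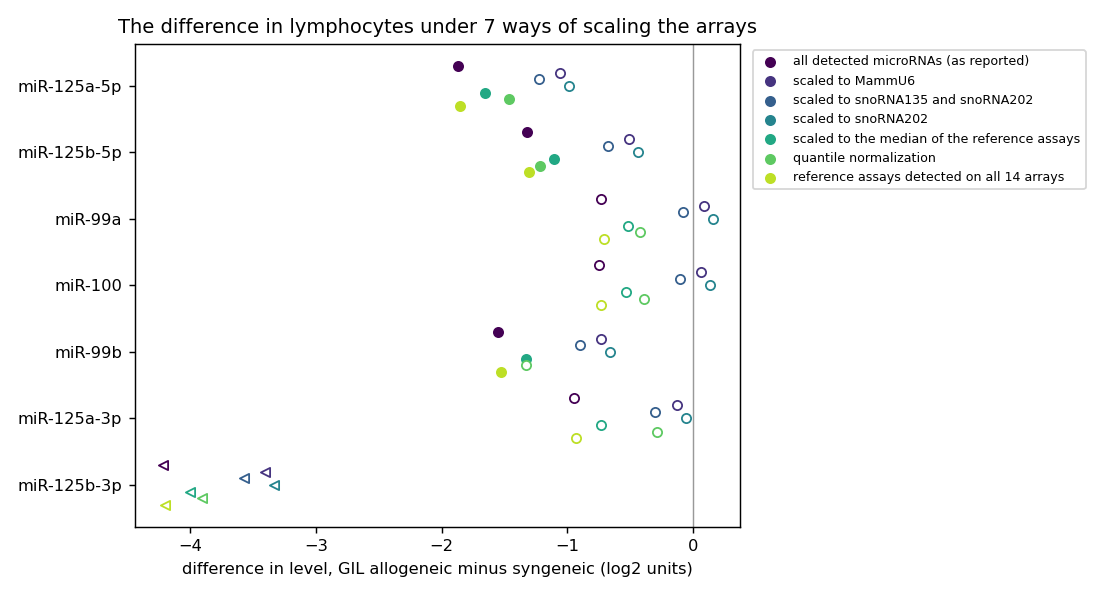
Log2 difference in level between allogeneic and syngeneic GIL for each microRNA under 7 ways of scaling the arrays, with filled points where the limma adjusted p was under 0.05 and open points where it was not. Scaling to MammU6, snoRNA202 or the mean of snoRNA135 and snoRNA202 moves all 7 microRNAs to the right by up to 0.89 log2 units. It leaves no filled points. Triangles for miR-125b-3p are bounds and are drawn open whatever their p.

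The authors' deposited table holds relative quantities against PBMC, scaled to snoRNA202. For miR-125b-5p these were 10.6, 14.4 and 15.1 in syngeneic GIL and 6.56, 21.4 and 6.75 in allogeneic GIL in the authors' deposited table, so that allogeneic pool 2 lay above and the other allogeneic pools below the syngeneic pools. For miR-125a-5p the authors' deposited table gives 1.35, 1.48 and 1.96 in syngeneic and 0.869, 1.36 and 0.428 in allogeneic GIL, where only allogeneic pool 2 reached the syngeneic range.

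In whole hearts no member was called between allogeneic and syngeneic grafts (0 of 7 by limma, 2 of 7 at an unadjusted p under 0.05), while 32.4% of the 238 assays tested were. The share of all assays at an unadjusted p under 0.05 is at least that 32.4%, so 2 of 7 does not stand out. The members' median difference was 0.01 and that of all assays 0.02. The groups of 3 members did not overlap, beside 54.2% of all assays tested.

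The members with an unadjusted p under 0.05 were the 2 opposite-arm products. miR-125b-3p had levels of -4.53, -4.74 and -6.22 in syngeneic grafts, -4.26, -3.32 and -3.02 in allogeneic grafts and -5.29 in the normal heart. Its difference was 1.63 ± 0.54 (SE, limma adjusted p = 0.0551), and on the 2 run days that held both groups it was 0.27 and 1.72. miR-125a-3p had levels of -4.47, -4.48 and -4.29 in syngeneic grafts, -3.93, -3.40 and -3.91 in allogeneic grafts and -5.13 in the normal heart. Here the groups were close and separate, with a difference of 0.67 ± 0.24 (SE, limma adjusted p = 0.0657) and values of 0.54 and 0.57 within the 2 run days.

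The 5 main-arm members moved little between rejected and accepted hearts. miR-125a-5p had levels of 2.15, 2.29 and 2.48 in syngeneic and 2.11, 2.12 and 1.85 in allogeneic grafts, a difference of -0.28 (95% interval -0.79 to 0.24). miR-125b-5p had 5.05, 5.04 and 4.97 against 4.50, 5.25 and 4.71, a difference of -0.20 (95% interval -0.81 to 0.41). The 3 syngeneic values of miR-125b-5p lay within the allogeneic range. The differences were -0.05 for miR-99a (95% interval -0.57 to 0.48), 0.01 for miR-100 (95% interval -0.58 to 0.60) and 0.32 for miR-99b (95% interval -0.39 to 1.04). miR-100 and miR-99a changed sign under other scalings, within 0.25 log2 units of 0 for miR-100 and 0.32 for miR-99a. In the same hearts 5 of 6 cardiac muscle, 2 of 2 endothelial and both tested fibroblast microRNAs were lower in allogeneic grafts, and 2 of 2 pan-leukocyte microRNAs were higher. Of the smooth muscle microRNAs 1 of 2 was lower. Of the lymphocyte microRNAs 1 of 3 and of the erythroid 1 of 2 were higher, and myeloid miR-223 was not called.

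**Figure D3:**
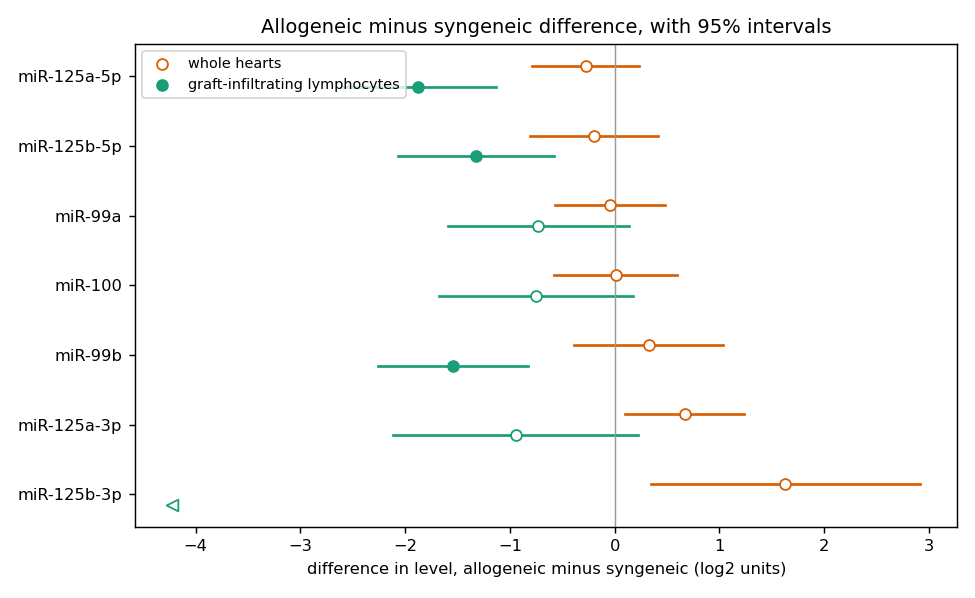
Log2 difference in level between allogeneic and syngeneic samples for each microRNA, with 95% intervals from limma, in whole hearts and in GIL. Filled points were called at an adjusted p under 0.05: 3 microRNAs in GIL, all lower, and none in hearts. The triangle for miR-125b-3p in GIL is a bound with no interval.

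The allogeneic difference was then compared between hearts and GIL as an interaction over the 12 transplant arrays. Of the 6 members detected on all these arrays, all had the more negative difference in GIL, and for 3 of 6 the difference between hearts and GIL was called: miR-99b at 1.87 ± 0.41 (SE, limma adjusted p = 0.00914), miR-125a-5p at 1.60 ± 0.35 (limma adjusted p = 0.00914) and miR-125a-3p at 1.61 ± 0.54 (limma adjusted p = 0.0455). Of all 148 assays detected on these arrays, 30.4% were called, 20.3% with the heart value higher and 10.1% with it lower. The median of the 6 members was 1.36 and that of the 148 assays 0.14. miR-125b-5p was at 1.12 (limma adjusted p = 0.0502), miR-99a at 0.68 and miR-100 at 0.76, and none of these was called. The call of miR-125a-3p was lost under all 6 other scalings, at limma adjusted p-values from 0.0663 to 0.563, when any of 10 of the 12 arrays was left out, at up to 0.0956, with a limit of Ct 40 and with no filter on low values. The calls of miR-99b and miR-125a-5p were lost under the 3 scalings to small RNA controls, where miR-99a turned negative, to between -0.25 and -0.041, as did miR-100 with MammU6 (-0.18). For miR-125b-3p the value is a bound, at least 5.85, because it was undetected in allogeneic GIL. Hearts and GIL were also separate runs on different days after transplantation, which cannot be told apart from tissue.

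Against the normal heart, syngeneic grafts had 0 of 7 members called by limma (1 at an unadjusted p under 0.05), where 19% of 242 assays were called. The largest difference was that of miR-125b-5p, at 5.90 in the normal heart and 0.89 log2 units lower in the grafts (log2 difference -0.89, 95% interval -1.75 to -0.02, limma adjusted p = 0.119). Allogeneic grafts had 2 of 7 called, where 51.9% of 241 assays were, 26.1% as higher and 25.7% as lower. miR-125a-3p was 2.61-fold higher in allogeneic grafts than in the normal heart, at a log2 difference of 1.38 ± 0.34 (SE, limma adjusted p = 0.0154), a call lost with MammU6 (limma adjusted p = 0.13) and with quantile normalization (limma adjusted p = 0.207). miR-125b-5p was 2.12-fold lower, at -1.08 ± 0.36 (SE, limma adjusted p = 0.0449), a call lost when any array but allogeneic pool 2 was left out, with quantile normalization and under the 3 scalings to small RNA controls (limma adjusted p from 0.0613 to 0.426). The normal hearts were 1 pool, of the strain of the allogeneic donors, and its spread was taken from the other groups.

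Against PBMC, syngeneic GIL had 2 of the 6 members detected on all 4 arrays higher and none lower, where 59.3% of 162 such assays were called, 21% as higher and 38.3% as lower. miR-125b-5p was 9.55-fold higher in syngeneic GIL, at a log2 difference of 3.25 ± 0.44 (SE, limma adjusted p = 0.00186), a call lost with MammU6 (limma adjusted p = 0.057). miR-125a-3p, at -3.56, -2.65 and -4.21 in syngeneic GIL and -5.84 in PBMC, was higher by 2.37 ± 0.69 (SE, limma adjusted p = 0.0282). That call was lost without syngeneic pool 1 (limma adjusted p = 0.0596), with MammU6 (limma adjusted p = 0.246), with quantile normalization (limma adjusted p = 0.637), with a limit of Ct 40 and with no filter on low values. miR-125b-3p, undetected in PBMC, was at least 107-fold higher, a bound that is not counted.

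The remaining members were not called between syngeneic GIL and PBMC in the reported fit. miR-100 differed by 1.57 (limma adjusted p = 0.05003, just above the threshold, and 0.0464 without allogeneic pool 3, which shares the estimate of the spread) and miR-99a by 1.29 (limma adjusted p = 0.0711). miR-100 and miR-99a were both called with the median of the reference assays (1.81 and 1.53) and with a limit of Ct 32 (1.91 and 1.64). Quantile normalization (1.82) also gave a call of miR-100, as did leaving out any of 3 arrays, but not the other 3. miR-99b and miR-125a-5p were near the PBMC level, at 0.51 (95% interval -0.55 to 1.57) and 0.18 (95% interval -0.91 to 1.28). These 2, which come from the chromosome 17 cluster, changed sign when scaled to MammU6. The median difference over all assays tested was -0.77.

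In allogeneic GIL against PBMC, 6 members were detected on all 4 arrays and 2 were called, where 63.9% of 144 such assays were, 19.4% as higher and 44.4% as lower. miR-125b-5p was higher by 1.93 ± 0.43 (SE, limma adjusted p = 0.0137), and miR-125a-5p was lower, at -1.69 ± 0.43 (SE, limma adjusted p = 0.0203). Without allogeneic pool 3 these were 2.02 (limma adjusted p = 0.0156) and -1.42 (limma adjusted p = 0.0134), and no other member was called. The 2 microRNAs share a seed and were called in opposite directions under this scaling. Over the 7 scalings, miR-125a-5p stayed negative, from -1.96 to -0.33, and miR-125b-5p positive, from 1.66 to 3.30. The call of miR-125a-5p was lost under 3 of them, with snoRNA202 (limma adjusted p = 0.804), the snoRNA pair (0.518) and the median of the reference assays (0.0677), and that of miR-125b-5p with MammU6 (0.135). Both calls were also lost with no filter on low values and in a fit of only the 2 groups compared. miR-125a-3p was called as higher with snoRNA202 and with the snoRNA pair, at 2.78 and 2.41. Relative to the median of all assays, miR-125a-5p lay between -0.50 and -0.13 and miR-125b-5p between 3.12 and 3.41, so that miR-125a-5p was near the typical assay. Both comparisons with PBMC share the same single PBMC array.

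**Figure D4:**
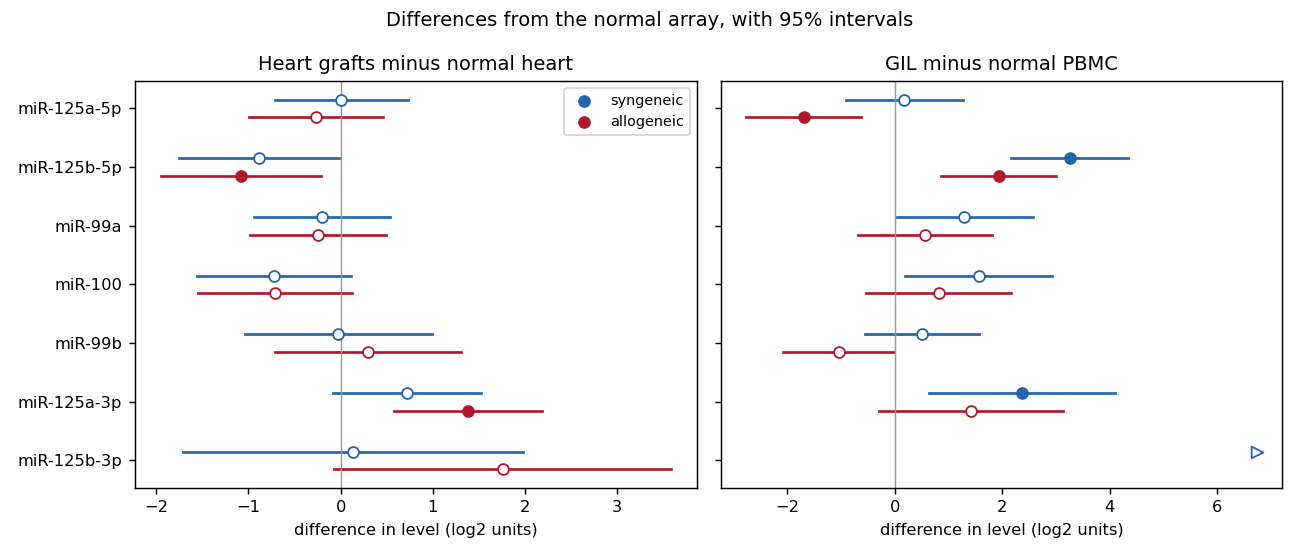
Log2 difference of each microRNA from the normal array of its table, with 95% intervals from limma: heart grafts minus normal heart on the left, GIL minus PBMC on the right. Filled points were called at an adjusted p under 0.05; miR-125b-5p lies to the right of 0 in both GIL groups and to the left of 0 in both graft groups. The triangle for miR-125b-3p is a bound with no interval.

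Differences between 2 assays on the same array need no scaling, and 9 such pairs, within clusters, hairpins or seeds, were compared between allogeneic and syngeneic arrays in both tables. With 3 arrays against 3 the exact permutation test cannot go below 0.10, and none of the 18 comparisons could pass. Of the 17 in which both assays were detected on all 6 arrays, 5 did not overlap, 2 of 9 in hearts and 3 of 8 in GIL, each with an exact two-sided p of 0.1 and an adjusted p of 0.3. Over all pairs of assays so detected, 54.2% did not overlap in hearts and 58.8% in GIL, so the pairs below are described by their values alone.

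Within the miR-125a hairpin, miR-125a-3p minus miR-125a-5p in hearts was -6.61, -6.77 and -6.77 in syngeneic grafts, -6.04, -5.52 and -5.76 in allogeneic grafts and -7.43 in the normal heart. The 3′ arm thus stood higher relative to the 5′ arm in every allogeneic graft than in any other heart. In GIL the same difference overlapped, with means of -4.25 ± 0.81 and -3.33 ± 0.80 (SD, n = 3 each), and PBMC was at -6.44.

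Within the miR-125b hairpins, miR-125b-3p minus miR-125b-5p in hearts was -9.58, -9.78 and -11.19 in syngeneic and -8.76, -8.57 and -7.73 in allogeneic grafts, with -11.2 in the normal heart. Here too the 3′ arm was relatively higher in the allogeneic grafts. In GIL the difference was -8.58 on average in syngeneic pools and at most -11.48 in allogeneic pools, where miR-125b-3p was undetected. The bound depends on the limit at which the undetected wells stand. With a limit of Ct 32 it no longer sets an order, as the 2 means then differed by 0.10 the other way.

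In the chromosome 17 cluster, miR-99b minus miR-125a-5p overlapped between the groups of GIL (2.02 ± 0.09 syngeneic and 2.34 ± 0.33 allogeneic, SD, n = 3 each) and of hearts. let-7e is the microRNA whose gene lies between theirs. The difference let-7e minus miR-125a-5p was 2.50, 2.76 and 1.86 in syngeneic and 3.36, 4.07 and 4.56 in allogeneic GIL, and 3.79 in PBMC, and in hearts the groups overlapped. let-7e itself differed by -0.25 ± 0.30 between the GIL groups (SE, limma adjusted p = 0.541). let-7a, let-7c and let-7e gave 0 of 3 calls by limma between allogeneic and syngeneic samples in either table, with 0 in hearts and 1 in GIL at an unadjusted p under 0.05. let-7a was undetected on allogeneic GIL pool 3. The other let-7 family assays had 0 of 5 called by limma in both tables, and 0 at an unadjusted p under 0.05.

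For the clusters on chromosomes 9 and 16, miR-99a minus miR-125b-5p was -1.80, -1.45 and -1.53 in syngeneic and -1.02, -0.97 and -1.02 in allogeneic GIL, against 0.37 in PBMC. miR-100 minus miR-125b-5p was -1.63, -1.31 and -1.14 against -0.72, -0.67 and -0.97, with 0.33 in PBMC. In both, allogeneic GIL lay between syngeneic GIL and blood cells. Without allogeneic pool 3 the allogeneic minus syngeneic values of these 2 pairs were 0.60 and 0.66, that of let-7e minus miR-125a-5p was 1.34 and that of miR-125a-3p minus miR-125a-5p was 0.48. The 2 members with the miR-125 seed gave the widest contrast between PBMC and the other arrays. miR-125a-5p minus miR-125b-5p was 0.36 in PBMC and between -3.62 and -2.39 on all 12 transplant arrays, with -3.60 in the normal heart.

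**Figure D5:**
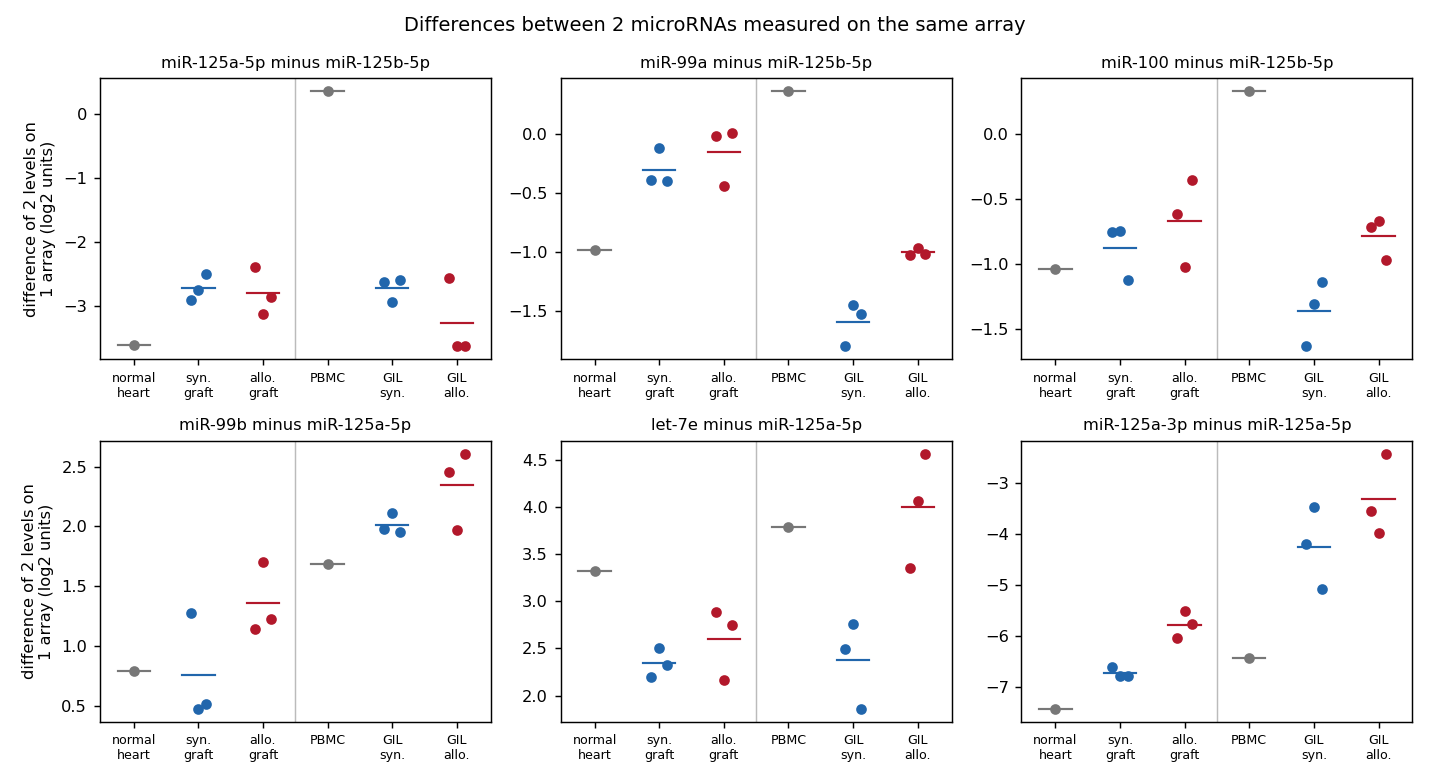
Difference in level between 2 microRNAs on the same array, in log2 units, for 6 pairs; each point is 1 array and short lines are group means. For miR-125a-5p minus miR-125b-5p the PBMC array at 0.36 stands above the 13 other arrays, and for miR-99a minus miR-125b-5p the allogeneic GIL lie between the syngeneic GIL and PBMC.

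Set on 1 scale by the 133 assays detected on all 14 arrays, miR-125b-5p was highest in the normal heart (4.37), followed by syngeneic grafts (3.48 ± 0.05), syngeneic GIL (3.46 ± 0.25), allogeneic grafts (3.14 ± 0.40), allogeneic GIL (2.15 ± 0.42) and PBMC (0.20), each with SD over 3 arrays where replicated. Syngeneic GIL overlapped both graft groups. miR-99a had the order normal heart, syngeneic grafts, allogeneic grafts, syngeneic GIL, allogeneic GIL and PBMC, from 3.39 to 0.57, and miR-100 the same order, from 3.33 to 0.53. For miR-99a the normal heart lay within the syngeneic range and the graft groups overlapped each other, and the widest step was from allogeneic grafts (3.00 ± 0.22) to syngeneic GIL (1.86 ± 0.42), whose ranges did not overlap. For miR-100 the normal heart lay above all grafts, which had 2.60 ± 0.26 in the syngeneic and 2.48 ± 0.32 in the allogeneic group and overlapped. Syngeneic GIL (2.10 ± 0.44) overlapped both graft groups for miR-100. The 2 GIL groups overlapped for both microRNAs. miR-125a-5p lay between 0.35 and 0.77 in 5 groups and at -1.11 ± 0.48 in allogeneic GIL. miR-99b was highest in syngeneic GIL (2.76 ± 0.16) and lowest in allogeneic GIL (1.23 ± 0.44), which overlapped both graft groups. The tables were run separately, so this order is a description.

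The likeness of patterns was measured as the root mean square difference of centred levels over the 7 arrays of a table, across the assays detected on all of them. In GIL and PBMC, miR-99a and miR-100 were each other's nearest among 136 other assays, at 0.14 log2 units, and miR-125a-5p and miR-99b likewise, at 0.29, beside medians of 1.12 to 1.67 over all assays. How far the assays for miR-99a and miR-100, whose targets differ by U16A, tell the RNAs apart was not tested. The next nearest was miR-152 for both miR-99a and miR-100, and miR-31 for both miR-125a-5p and miR-99b. miR-125b-5p was nearest to miR-497 (0.25) and miR-335-5p (0.34), and miR-125a-3p to miR-335-5p (0.55) and miR-574-3p (0.59).

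In hearts the members were mostly nearest to microRNAs outside the family, among 209 others. miR-125a-5p was nearest to miR-24 (0.15) and miR-331-3p (0.21), miR-125b-5p to miR-218 (0.14) and miR-194 (0.19), and miR-99a to miR-103 (0.19) and miR-331-3p (0.20). miR-100 was nearest to miR-103 (0.20) and then miR-99a (0.21), and miR-99b to let-7i (0.19) and miR-410 (0.21). miR-125a-3p was nearest to miR-132 (0.15) and miR-28 (0.20), and miR-125b-3p to miR-425 (0.56) and miR-369-5p (0.59). These distances describe 7 arrays that share group and run effects.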

How the data were processed

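The authors ran TaqMan rodent microRNA cards on a 7900HT instrument, with RNA isolated by a mirVana kit, 100 ng from each of 3 animals pooled to 300 ng, then reverse transcribed and preamplified with Megaplex primers, per the labels' protocols. Values were exported with SDS 2.4, per the file headers. The deposited Ct is a score that falls as the level rises. The deposited delta Ct is a log2 value and equals Ct minus that of snoRNA202 within 0.0005 on each array, and the deposited relative quantity is a ratio against the normal array. Baseline and threshold settings were not given in the sources used here. Each card had 384 wells and 375 microRNA assays. In hearts 1 well (let-7b) was left out because its sample name matched no sample.

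Ct values that were undetermined or at 35 or later were set to 35. Levels were scaled to the assays detected on all 7 arrays of a table and fitted in R 4.3.3 by limma 3.58.1 (two-sided, lmFit then eBayes with 3 groups a table and a shared residual spread, so that the single normal array was assumed to vary like the others). An assay was tested when detected on every array of at least 1 group compared, and called where its p, adjusted over all assays tested by Benjamini-Hochberg, was under 0.05. A fold against a group with no detected array is a lower bound, given with no p, and counts of members called are over those detected on every array of the groups compared. Pools are the replicates. Whether pools were separate animals throughout is not stated, so p-values measure the spread between these pools, and the number of arrays limits the precision. Same-numbered pools did not deviate together (correlations from -0.13 to 0.06). The fitting was tested on simulated data.

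Named assays were all members, their let-7 cluster partners, the other let-7 assays as a list, and the 2 nearest assays of each member. The members, lists and pairs were chosen with earlier results of these data known. The alternatives were other scalings, detection limits, filters, blocks and left-out arrays.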

Additional observations from a re-analysis of the deposited data

Results flagged for a closer look

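By the interaction test over the 12 transplant arrays, the allogeneic difference was called as unlike between whole hearts and GIL for 3 members. Of all 148 assays detected on these arrays, 30.4% were called. Tissue cannot be told apart from run and day after transplantation. The heart difference exceeded the GIL difference by 1.61 log2 units for miR-125a-3p, by 1.60 for miR-125a-5p and by 1.87 for miR-99b. For miR-125a-3p the group means moved in opposite directions, by 0.67 in hearts and -0.95 in GIL, neither of which was called in its own table. Without allogeneic GIL pool 3 the 3 values were 1.79, 1.33 and 1.74 in the same order, and all 3 stayed called. Over the 12 left-out arrays, miR-125a-3p was called with 2 of them left out and not with the other 10, and it was called under no other scaling. Scaling to MammU6, snoRNA202 or the snoRNA pair also removed the calls of miR-125a-5p and miR-99b, at limma adjusted p-values from 0.129 to 0.467.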

How the results depend on the processing

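The counts of members called were recomputed under 6 other scalings, 2 other detection limits, other filters and blocks, and without each transplant array. These counts follow the rule for testing and so include miR-125b-3p where it stands at the limit. Counting only members detected on every array, chosen after seeing the data, gave 3 in place of 4 in GIL, 2 in place of 3 for syngeneic GIL against PBMC, 3 in place of 4 for the interaction and 5 in place of 6 pairs. Between allogeneic and syngeneic hearts the count went from 0 to 1 with quantile normalization, a limit of Ct 32, undetected wells left out or a robust spread, each time miR-125b-3p, and was 0 under every left-out array. In GIL it went from 4 to 1 when scaled to MammU6, to snoRNA135 and snoRNA202, to snoRNA202, or with no filter on low values, to 3 with quantile normalization, and ranged from 1 to 4 over the left-out arrays. The 1 left under the 3 small RNA scalings was the bound of miR-125b-3p, so no measured member was called there. Allogeneic hearts against the normal heart went from 2 to 0 with MammU6 and to 1 with either snoRNA scaling, quantile normalization or no filter, and ranged from 1 to 2 over left-out arrays. Syngeneic GIL against PBMC went from 3 to 1 with MammU6, the bound of miR-125b-3p, and to 5 with the median of the reference assays or a limit of Ct 32. Allogeneic GIL against PBMC went from 2 to 1 with MammU6 or the median, and to 0 with no filter or only the 2 groups compared. Allogeneic GIL against PBMC gained miR-125a-3p and lost miR-125a-5p under both snoRNA scalings, which leaves the count at 2. The interaction went from 4 to 1 with the 3 small RNA scalings, again the bound of miR-125b-3p, and miR-125a-3p lost its call under all 6 other scalings. Syngeneic against normal hearts stayed at 0 throughout, and the 6 pairs without overlap were 5 to 9. The cause of these shifts was not tested.

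Over all assays, the number called ranged over all settings from 2 (run day as a fixed block) to 90 in hearts, from 31 to 85 in GIL, from 24 to 55 and from 58 to 134 for syngeneic and allogeneic hearts against normal, from 94 to 156 and from 62 to 148 for the 2 GIL groups against PBMC, and from 15 to 61 for the interaction. The share of higher calls over the scalings ran from 30.0% to 64.6% in hearts (53.2% as reported), from 34.2% to 79.2% in GIL (34.2%), from 50.0% to 83.3% (60.9%) and from 38.0% to 73.1% (50.4%) for hearts against normal, from 36.6% to 67.0% (47.5%) and from 38.2% to 85.7% (38.2%) for GIL against PBMC, and from 25.9% to 71.9% (71.9%) for the interaction.

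With the replicate number as a block, the pairing left 0 members called in hearts and 4 in GIL, with 46 and 55 assays called in all, against 77 and 73 without it. Same-numbered pools did not deviate together, and the block changed no member's call. Run day as a random block left 0 and 4. Run day as a fixed block could not be fitted in GIL.

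Signs turned only where the reported difference was not called. The pair of miR-125b arms in GIL, whose value is a bound, turned to 0.10 at a limit of Ct 32. Between allogeneic and syngeneic hearts, miR-99a turned to 0.11 with snoRNA202, and miR-100 to -0.11 with MammU6, -0.065 with the snoRNA pair, -0.25 with the median, -0.24 with quantile normalization, -0.13 with the 14-array reference, -0.00235 at Ct 32 and -0.17 with run day fixed. Over left-out arrays they ranged from -0.12 to 0.057 and from -0.14 to 0.14. In GIL, miR-99a turned to 0.089 and 0.16 and miR-100 to 0.068 and 0.14 with MammU6 and snoRNA202. For syngeneic against normal hearts, quantile normalization gave -0.17 for miR-125a-3p, -0.98 for miR-125b-3p and 0.13 for miR-99b. MammU6 and snoRNA202 gave 0.14 and 0.24 for miR-99a and 0.32 and 0.41 for miR-99b, the median gave 0.028 for miR-99b, and the snoRNA pair gave -0.057 for miR-125a-5p. Over left-out arrays miR-125a-5p ranged from -0.0808 to 0.088, miR-125b-3p from -0.19 to 0.66 and miR-99b from -0.21 to 0.12. With snoRNA202, allogeneic against normal hearts gave 0.32 for miR-125a-5p and 0.35 for miR-99a, and allogeneic GIL against PBMC gave 0.33 for miR-99b. For syngeneic GIL against PBMC, miR-125a-5p turned to -0.91 with MammU6 and -0.14 at Ct 40, and miR-99b to -0.58 with MammU6. In the interaction, miR-99a turned to -0.25, -0.041 and -0.053 with MammU6, the snoRNA pair and snoRNA202, and miR-100 to -0.18 with MammU6.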
